A study of Mus musculus with 22 samples.

Results

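A set of 9 genes that mark striatal projection neurons was followed in RNA-sequencing libraries of mouse cerebrum, cerebellum and thymus: Drd1, Tac1, Pdyn, Drd2, Adora2a, Penk, Rgs9, Ppp1r1b and Pde10a. They were chosen by name, as 9 of the 34585 entries listed in each organ's count table, and all 9 were found. They were read library by library, as a measure of how much striatal RNA each cerebrum held.

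Tol mice carry a transgene that encodes fragments of fluorescent proteins, luciferase and Cre recombinase in scrambled order, driven by the ubiquitous CAG promoter and placed 3′ of Col1a1 in embryonic stem cells. The Tol mice were heterozygous, and their WT littermates lacked the transgene; the labels give C57BL/6 as the strain of both and give neither age nor sex, and the methods give an age range of young adults for all animals of the study. The libraries came from 4 Tol and 4 WT cerebra, 2 Tol and 4 WT cerebella, and 4 Tol and 4 WT thymi, all from untreated frozen tissue. Libraries of different organs may come from the same mice, which the labels do not say. Neither the labels nor the methods used here say how the cerebrum was cut from the brain or which of its parts were kept. The Tol transcript had at least 448 counts in every Tol library and at most 2 in any WT library, so the transcript matched the genotype label of each. Library totals ran from 14543698 to 34776973 estimated counts over the 22 libraries, and the lowest total was that of cerebrum Tol 4.

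The striatum is the input nucleus of the basal ganglia, and nearly all of its neurons are GABAergic projection neurons. Those of the direct pathway carry the dopamine D1 receptor (Drd1) and make the peptides substance P (Tac1) and dynorphin (Pdyn). Those of the indirect pathway carry the dopamine D2 receptor (Drd2) and an adenosine receptor (Adora2a) and make enkephalin (Penk). Both share a signalling set that includes the G-protein regulator Rgs9, the phosphatase inhibitor DARPP-32 (Ppp1r1b) and the cyclic nucleotide phosphodiesterase Pde10a. Some of these genes are also active elsewhere: Drd1, Tac1, Pdyn and Penk in groups of cortical and hippocampal neurons, Penk and Ppp1r1b in cerebellum, and Adora2a in T cells.

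The 9 genes lie on 8 chromosomes, with Rgs9 (chr11:109225355-109298129) and Ppp1r1b (chr11:98348404-98357796) both on chromosome 11 (GRCm38, GENCODE vM21). The dopamine receptors are at chr13:54051183-54055705 (Drd1, minus strand) and chr9:49340627-49408177 (Drd2, plus strand). Exons of Penk overlap A830012C17Rik and exons of Ppp1r1b overlap 1700003D09Rik on the opposite strand, and whether the estimation used strand is not given in the sources used here, so the counts of both are less certain. RefSeq (GRCm38.p6) gave promoter windows for 6 of the 9 genes, 9 windows of 250 bases that end at the annotated start; Adora2a, Penk and Ppp1r1b had none. Of these windows, 4 are shown, those of 2 receptors, 1 peptide precursor and Rgs9. Capitals mark matches, on either strand, to the GC box GGGCGG, the CRE half-site TGACG and the TATA box TATAAA, and no match overlaps another.
Drd1, chr13:54054781-54055030, minus strand: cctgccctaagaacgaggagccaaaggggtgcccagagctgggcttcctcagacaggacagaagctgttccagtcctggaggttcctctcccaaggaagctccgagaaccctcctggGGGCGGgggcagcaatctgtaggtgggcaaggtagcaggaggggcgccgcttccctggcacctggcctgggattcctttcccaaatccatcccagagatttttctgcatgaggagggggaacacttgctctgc
Drd2, chr9:49340153-49340402, plus strand: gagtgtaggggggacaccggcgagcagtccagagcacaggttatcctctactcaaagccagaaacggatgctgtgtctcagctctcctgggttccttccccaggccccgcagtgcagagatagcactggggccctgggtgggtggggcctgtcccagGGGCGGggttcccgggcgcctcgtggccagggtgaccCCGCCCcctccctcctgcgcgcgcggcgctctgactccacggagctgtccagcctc
Tac1, chr6:7554811-7555060, plus strand: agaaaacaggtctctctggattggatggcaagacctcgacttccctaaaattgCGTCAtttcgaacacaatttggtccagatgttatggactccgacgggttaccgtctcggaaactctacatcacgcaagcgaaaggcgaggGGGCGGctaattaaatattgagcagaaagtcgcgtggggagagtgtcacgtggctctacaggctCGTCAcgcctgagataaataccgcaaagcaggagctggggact
Rgs9, chr11:109298182-109298431, minus strand: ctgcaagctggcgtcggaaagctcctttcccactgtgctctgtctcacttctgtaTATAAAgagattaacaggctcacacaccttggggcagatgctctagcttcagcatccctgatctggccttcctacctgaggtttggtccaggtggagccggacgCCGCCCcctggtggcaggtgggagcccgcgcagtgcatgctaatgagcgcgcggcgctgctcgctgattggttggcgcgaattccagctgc
The GC box was found in 5 of the 9 windows, against 32.7% of 32851 mouse promoter windows of the same length. The other window of Drd1, chr13:54055659-54055908, held no match to any of these motifs. Tac1 alone of the 6 genes held the CRE half-site, with 2 matches, against 17.8% of windows. Rgs9 alone held the TATA box, against 12.4% of windows. These are matches of letters only.

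In cerebrum, all 9 members were highest in the library WT 3 and second highest in Tol 4, so 1 library of each genotype stood apart. Both libraries were above the other 6 cerebra for 7.32% of 15596 genes tested, and both below them for 6.84%. Cerebrum Tol 1 came next for 7 of the 9. The levels given here are CPM scaled by TMM factors over all 22 libraries.

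Among the direct pathway genes, Drd1 was at 15.1, 8.99, 13.4 and 73.1 CPM in cerebrum Tol 1, 2, 3 and 4, and at 12.3, 11.1, 138.7 and 12.3 CPM in WT 1, 2, 3 and 4. Tac1 was at 10.9, 5.72, 6.76 and 45.9 CPM in the Tol cerebra and at 8.73, 9.39, 71.1 and 11.7 CPM in the WT cerebra, in the same order. The 2 genes thus had 1 high library in each genotype, and the ranges of the genotypes overlapped. Pdyn moved least, with 28.8, 23.0, 22.6 and 38.9 CPM in the Tol and 16.3, 23.5, 51.6 and 24.9 CPM in the WT cerebra. Its highest library was 3.18 times its lowest, against 15.4 times for Drd1 and 12.4 times for Tac1.

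The indirect pathway genes had the widest ranges. Drd2 was at 5.48, 0.428, 2.61 and 56.8 CPM in cerebrum Tol 1, 2, 3 and 4, and at 2.28, 2.06, 125.2 and 1.86 CPM in WT 1, 2, 3 and 4. Adora2a was at 11.9, 2.41, 3.31 and 75.4 CPM in the Tol and at 2.06, 2.38, 163.0 and 1.62 CPM in the WT cerebra. Both receptors were thus near the bottom of the scale in several libraries of each genotype. The D2 receptor rested on 8 counts in Tol 2 (95% Poisson interval 0.185 to 0.843 CPM, counting error only), which makes its 292.5-fold range imprecise. Penk was at 77.7, 33.1, 34.8 and 389.6 CPM in the Tol and at 15.7, 34.7, 658.5 and 18.9 CPM in the WT cerebra. The range was 100.8-fold for Adora2a and 42.0-fold for Penk.

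The shared signalling genes had the same 2 high libraries. Rgs9 was at 20.4, 8.72, 14.9 and 116.8 CPM in cerebrum Tol 1, 2, 3 and 4, and at 12.5, 10.03, 211.2 and 13.1 CPM in WT 1, 2, 3 and 4. Ppp1r1b was at 90.3, 103.5, 71.8 and 377.8 CPM in the Tol and at 47.0, 76.2, 777.6 and 50.5 CPM in the WT cerebra. In both, the high libraries were above every other cerebrum. Pde10a was at 143.7, 139.9, 122.3 and 680.6 CPM in the Tol and at 97.5, 99.1, 1056.9 and 84.3 CPM in the WT cerebra. The range was 24.2-fold for Rgs9, 16.5-fold for Ppp1r1b and 12.5-fold for Pde10a.

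**Figure D1:**
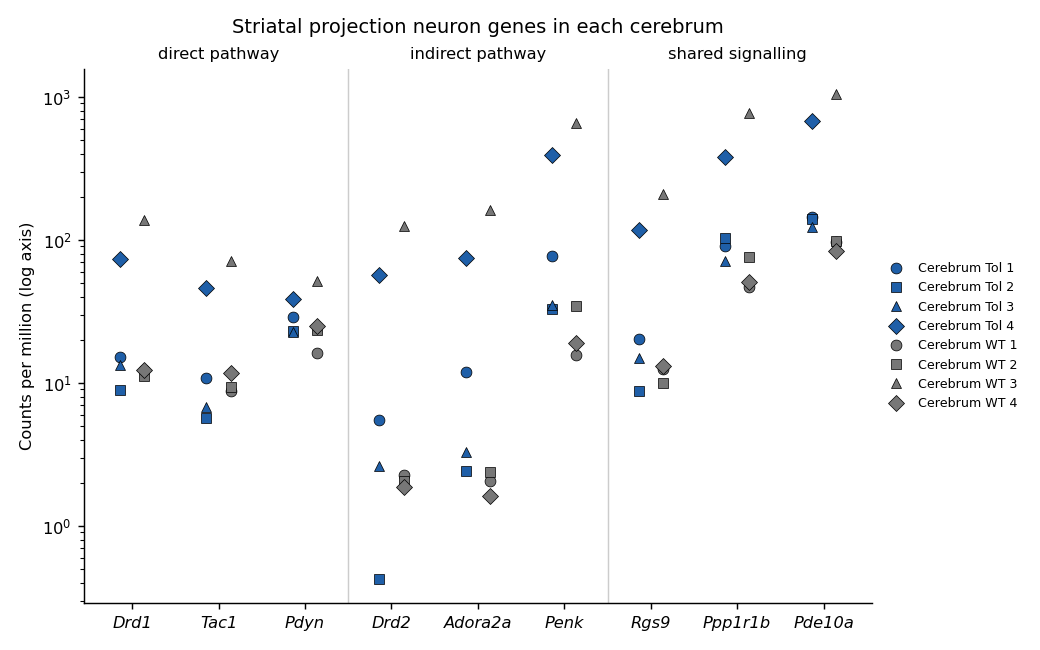
CPM (log axis) of each member in the 8 cerebrum libraries, with Tol in blue, WT in grey and a marker shape for each replicate number. Cerebrum WT 3 is highest and Tol 4 second for all 9 genes, while Pdyn spans only 3.18-fold.

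Cerebrum Tol 4 held between 45.4% (Drd2) and 75.4% (Pdyn) of the level in WT 3, with a median of 55.3% over the members. Per kilobase of the longest annotated transcript, the levels in WT 3 were 454.4 CPM for Penk, 388.6 for Ppp1r1b and 136.0 for Pde10a, above 62.8 for Adora2a, 61.0 for Rgs9 and 49.1 for Drd2. Drd1 was at 38.8, Tac1 at 36.02 and Pdyn at 21.6 CPM per kilobase in that library. In such bulk samples, fewer striatal neurons and less of each transcript per neuron cannot be told apart.

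The mean level over the 9 members, log2(CPM + 1), was 4.81, 3.91, 4.18 and 6.96 in cerebrum Tol 1, 2, 3 and 4, and 3.83, 4.06, 7.79 and 3.91 in WT 1, 2, 3 and 4. The 4 Tol cerebra had a mean of 4.96 (SD 1.38) and the 4 WT cerebra one of 4.90 (SD 1.93), so the genotypes differed by far less than the spread within either. The mean of Drd1, Tac1 and Pdyn minus that of Drd2, Adora2a and Penk was not constant. This difference was -0.07, 1.09, 0.75 and -1.21 in Tol 1, 2, 3 and 4, and 1.25, 1.02, -1.56 and 1.63 in WT 1, 2, 3 and 4. The indirect pathway genes were on average above the direct pathway genes in WT 3, Tol 4 and, narrowly, Tol 1, and below them in the other cerebra. The mean of the difference over the 4 Tol cerebra was 0.14 (SD 1.02), and over the 4 WT cerebra 0.58 (SD 1.45). In the 6 cerebra other than WT 3 and Tol 4, Drd2 was at 0.428 to 5.48 CPM and Adora2a at 1.62 to 11.9 CPM, in part near the pseudocount of 1. Drd1, Tac1, Pdyn and Penk are also active outside the striatum, and transcript length was not corrected for. The difference is therefore not a measure of the share of each pathway.

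Whether the members rise and fall together was asked for each of the 36 pairs over the 8 cerebra on log2(CPM + 1). Pearson's r was between 0.898 (Drd2 with Pdyn) and 0.996 (Drd1 with Rgs9), with a median of 0.954, and all 36 pairs passed a two-sided exact permutation test over 40320 pairings (Benjamini-Hochberg adjusted p from 0.00134 to 0.0211 over the 36 pairs). Spearman's rho was between 0.429 and 0.976, and 12 of the 36 pairs passed the same test on ranks. With WT 3 or Tol 4 left out, 20 of 36 pairs passed. The 2 libraries farthest from the median were WT 3 and Tol 4 for every pair. Without them r ran from -0.511 (Pde10a with Tac1) to 0.962 (Drd1 with Drd2), with a median of 0.500, so the relation over the 36 pairs rests on those 2 libraries. Some pairs kept a high r among the remaining 6 cerebra: Drd1 with Rgs9 at 0.961, Drd2 with Rgs9 at 0.916, Adora2a with Penk at 0.891 and Ppp1r1b with Pde10a at 0.857. Tac1 with Ppp1r1b fell to -0.470 from 0.905.

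**Figure D2:**
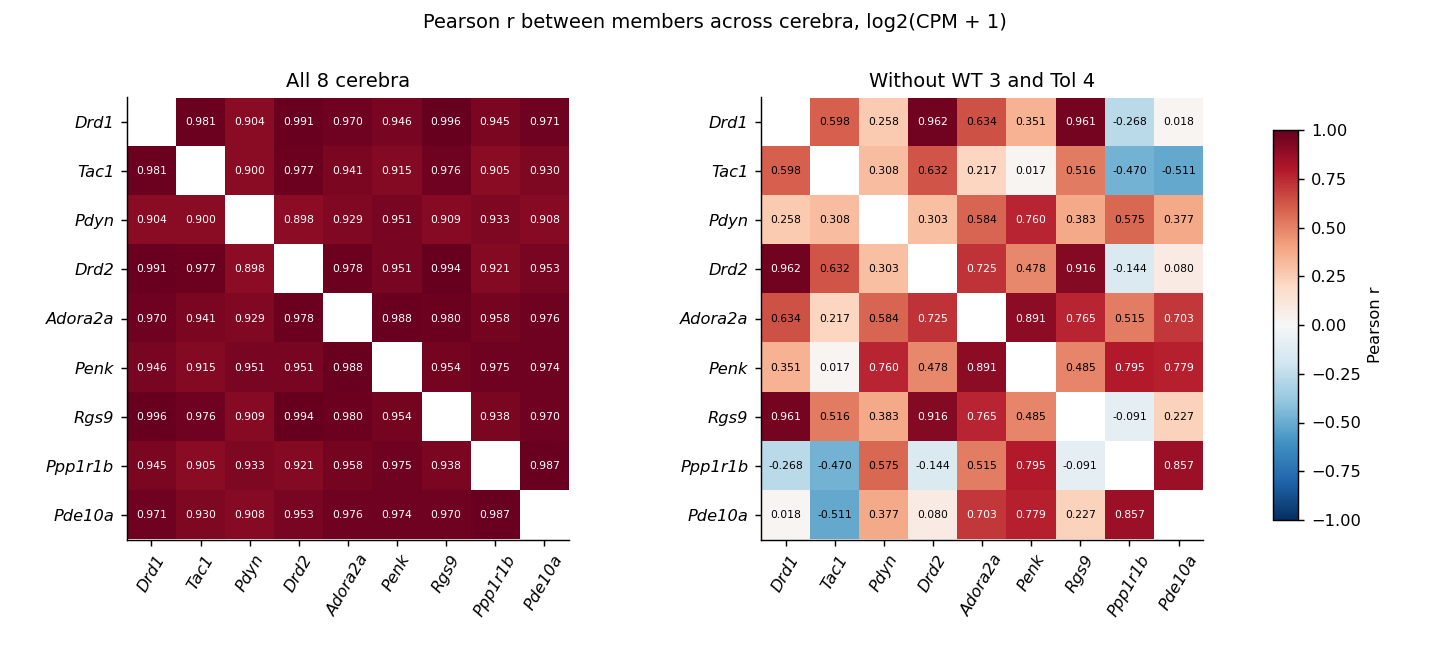
Pearson r of log2(CPM + 1) for each pair of members over all 8 cerebra (left) and without WT 3 and Tol 4 (right), on 1 colour scale from -1 to 1. All values on the left are at or above 0.898, while those on the right run from -0.511 to 0.962.

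The genes whose pattern over the 8 cerebra was most like the members' were found among 15587 other genes, by r with the mean of the members after each was centred and scaled. Among the first 10 were Slc35d3 (r = 0.998), Rarb (0.998), Six3 (0.993), Sh3rf2 (0.991), Pde1b (0.991), Scube3 (0.987), Arpp21 (0.986), Slc5a7 (0.986) and Spock3 (0.985). Of these, Rarb is a retinoic acid receptor, Pde1b a calmodulin-dependent phosphodiesterase and Slc5a7 the choline transporter of cholinergic neurons. Six3, a homeobox transcription factor, was at 18.2 CPM in WT 3 and at 10.7 CPM in Tol 4, against 0 to 1.70 CPM in the remaining 6 cerebra. An r over 0.9 was found for 178 of the 15587 genes (1.14%) and for 18 of the 26 tested genes on a list of other striatal projection neuron genes. The 8 points share the 2 high libraries, so these r are descriptions of that contrast.

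Markers of other regions were read in the same libraries. The other striatal projection neuron genes had a mean log2(CPM + 1) of 6.33 in WT 3 and 5.68 in Tol 4, against 3.96 to 4.37 in the remaining cerebra. The cortical excitatory neuron genes were at 6.53 in WT 3 and 6.50 in Tol 4, against 6.54 to 6.91 in the remaining cerebra. The hippocampal neuron genes were at 3.04 in WT 3 and 3.10 in Tol 4, in the lower part of their range of 2.94 to 4.52. Immediate early genes, which neuronal activity and handling induce, were at 5.49 in WT 3, 4.96 in Tol 4 and 4.58 in Tol 2, against 6.27 to 6.95 in the others. The part of these lists in the members' levels was not tested.

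**Figure D3:**
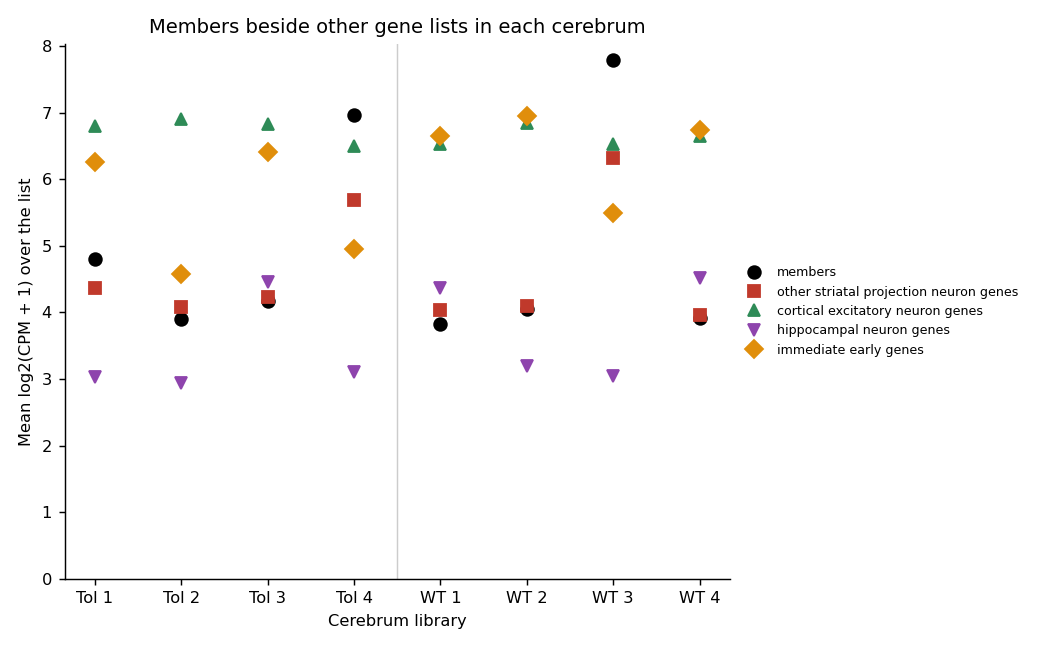
Mean log2(CPM + 1) of the members and of 4 other gene lists in each of the 8 cerebrum libraries, 4 Tol on the left and 4 WT on the right. The members and the other striatal genes peak in WT 3 and Tol 4, the hippocampal genes in Tol 3, WT 1 and WT 4.

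Tol and WT cerebra were then compared, the genotype comparison that the design implies. None of the 9 members passed edgeR's quasi-likelihood test at an adjusted p under 0.05 (0 of 9), and neither did any other gene (0% of 15596 tested, with 1506 at an unadjusted p under 0.05). All 9 log2 fold changes were below 0, with a median of -0.56 against -0.0049 over all genes tested. Drd2 had a log2 fold change of -1.04 (SE 1.59, edgeR adjusted p = 0.883), Adora2a of -0.88 (SE 1.56, adjusted p = 0.901) and Drd1 of -0.66 (SE 0.99, adjusted p = 0.879). Pdyn, the least variable member, had a log2 fold change of -0.04 (SE 0.33, edgeR adjusted p = 0.984). The genotypes overlapped for 9 of 9 members, where 6.46% of all genes tested had groups that did not overlap.

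The direction of these differences changed with single libraries. Without WT 3, all 9 log2 fold changes were above 0, from 0.39 (Pdyn) to 3.50 (Adora2a). Without Tol 4, all 9 were below 0, from -0.23 (Pdyn) to -3.51 (Drd2). Without both, 8 of 9 were above 0, with a median of 0.46, and edgeR's adjusted p was still between 0.256 and 0.920, so 0 of 9 members were called in any of these fits.

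**Figure D4:**
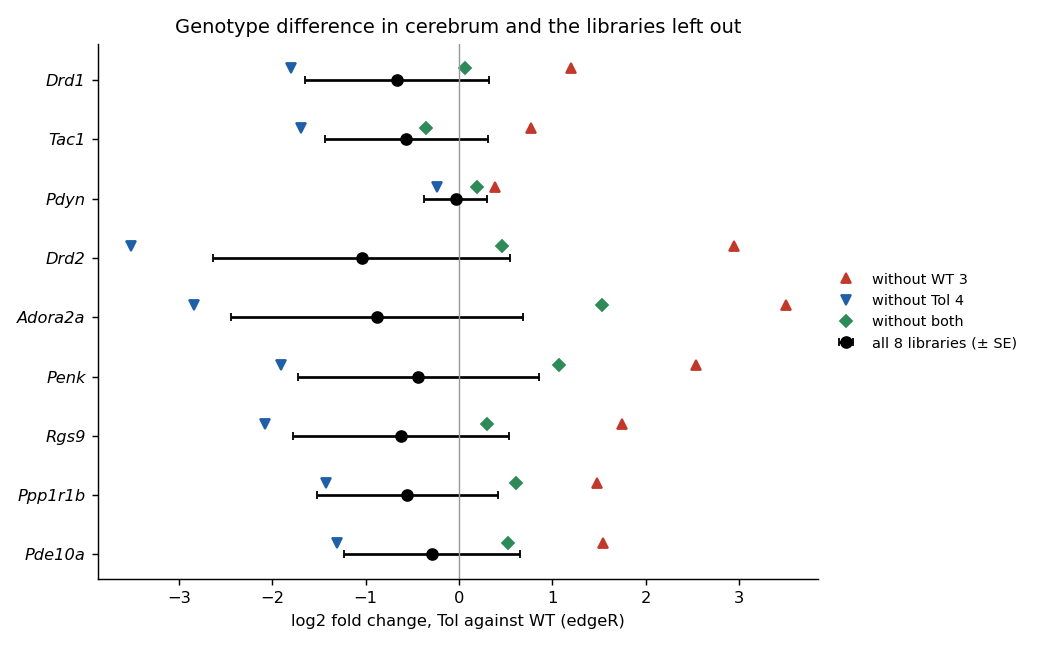
Log2 fold change (Tol against WT, edgeR) of each member in cerebrum, with all 8 libraries (black, ± SE) and without WT 3, without Tol 4 or without both. Values without WT 3 lie above 0 and values without Tol 4 below 0 for all 9 genes.

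The other genes of the striatum and of dopamine signalling gave the same counts between genotypes. Of 26 other striatal projection neuron genes tested in cerebrum, 0 were called, 21 had a negative and 5 a positive log2 fold change, and the median was -0.40. Chrm4, the M4 muscarinic receptor, had the lowest unadjusted p (log2 fold change -0.67, SE 0.15, edgeR adjusted p = 0.224), and Bcl11b, a transcription factor of these neurons, came next (-0.44, SE 0.40, adjusted p = 0.765). Of 19 dopamine and cAMP signalling genes tested, 0 were called and the median was -0.04. Drd5, the D5 receptor, had the lowest unadjusted p among them (log2 fold change -1.22, SE 0.57, edgeR adjusted p = 0.536), followed by the phosphodiesterase Pde2a (-0.22, SE 0.11, adjusted p = 0.565).

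The members were next placed by region, in WT libraries only. Between WT cerebrum and WT cerebellum, 5 of 9 members were called higher in cerebrum, where 24.2% of 15877 genes tested were called higher, and 0 of 9 were called lower, against 25.6% of genes. With the replicate number as a block, 2 of 9 were called higher, where 23% of genes tested were, and 0 of 9 lower, against 23.6%. The 2 were Drd1 (5.20, edgeR adjusted p = 0.00644) and Pdyn (5.01, adjusted p = 0.0137). With the block, Adora2a (edgeR adjusted p = 0.384), Rgs9 (0.0928) and Tac1 (0.145) did not pass. All 3 direct pathway genes were among the 5 called without it. Drd1 was at 1.26, 0.872, 0.579 and 0.0873 CPM in cerebellum WT 1, 2, 3 and 4, and its log2 fold change was 5.95 (SE 1.16, edgeR adjusted p = 0.00293). Pdyn was at 2.56, 1.48, 0.0772 and 0 CPM in these cerebella, the last 2 values being 2 counts and 0 counts and so at or under a floor of 3 counts a library. Every WT cerebrum held more Drd1 and more Pdyn than any WT cerebellum, but the share of all genes separated in this way was not counted.

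Tac1 was at 6.13, 6.58, 0.425 and 0.305 CPM in cerebellum WT 1, 2, 3 and 4, so its groups were separated by a narrow gap, and its log2 fold change was 2.91 (SE 1.07, edgeR adjusted p = 0.0491). Of the indirect pathway genes, Adora2a was called (log2 fold change 4.56, SE 1.60, edgeR adjusted p = 0.0417), although its 1.43, 2.40, 1.43 and 1.92 CPM in the WT cerebella overlapped those of 3 WT cerebra. Rgs9 was the shared signalling gene called (3.90, SE 1.10, edgeR adjusted p = 0.0173), at 5.16, 5.40, 2.74 and 3.23 CPM in the WT cerebella. Drd2 (2.98, adjusted p = 0.150), Pde10a (1.60, adjusted p = 0.137), Penk (1.06, adjusted p = 0.454) and Ppp1r1b (0.82, adjusted p = 0.466) did not pass edgeR's test.

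Without cerebrum WT 3, Drd1 (4.09), Pdyn (4.40) and Rgs9 (1.53) were called higher in cerebrum in the fit with no block. Adora2a (0.18, edgeR adjusted p = 0.618) and Tac1 (1.57, adjusted p = 0.198) no longer passed. Penk (-1.91, edgeR adjusted p = 0.00129) and Ppp1r1b (-1.21, adjusted p = 0.00698) were then called lower in cerebrum than in cerebellum. The members called were thus 3 higher and 2 lower of 9, where 22% of 16211 genes tested were called higher and 22.4% lower. In the 4 WT cerebella, Penk was at 93.1, 74.9, 77.3 and 103.7 CPM, above 3 of the 4 WT cerebra, and Ppp1r1b at 134.4, 93.0, 126.6 and 185.2 CPM, also above 3 of the 4. Of the other striatal genes, 16 of 25 tested were called higher and 1 lower in WT cerebrum, with a median of 2.23, and 13 higher and 2 lower without WT 3, with a median of 1.27; Chrm4 (5.36, edgeR adjusted p = 5.34e-06) and Sp9, a transcription factor (4.60, adjusted p = 1e-04), had the lowest p.

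Between WT cerebrum and WT thymus, 8 of 9 members were called higher in cerebrum, where 41.4% of 16851 genes tested were called higher, and 0 of 9 lower, against 45.1% of genes. The log2 fold changes ran from 5.13 (Penk) to 7.84 (Drd1) for the 7 called members with more than 3 counts in at least 1 WT thymus. Without cerebrum WT 3, these 7 were still called, with log2 fold changes from 2.14 (Penk) to 5.96 (Drd1), and Rgs9 went from 5.74 to 3.35 and Pde10a from 5.65 to 3.81. Drd2 was at 0 to 1 counts in the WT thymi, under the floor of 3 counts, so no fold change is given for it. Drd1 had 7, 5, 2 and 3 counts in thymus WT 1, 2, 3 and 4, at or under that floor in WT 3 and WT 4, so its fold changes are imprecise. Adora2a did not pass (log2 fold change 1.13, SE 1.24, edgeR adjusted p = 0.409). It was at 19.4, 19.0, 19.1 and 18.6 CPM in thymus WT 1, 2, 3 and 4, above 3 of the 4 WT cerebra. Without cerebrum WT 3, Adora2a was called lower in cerebrum than in thymus (-3.27, edgeR adjusted p = 8.13e-09). In that fit, 40.5% of 17145 genes tested were called higher in cerebrum and 45.6% lower.

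**Figure D5:**
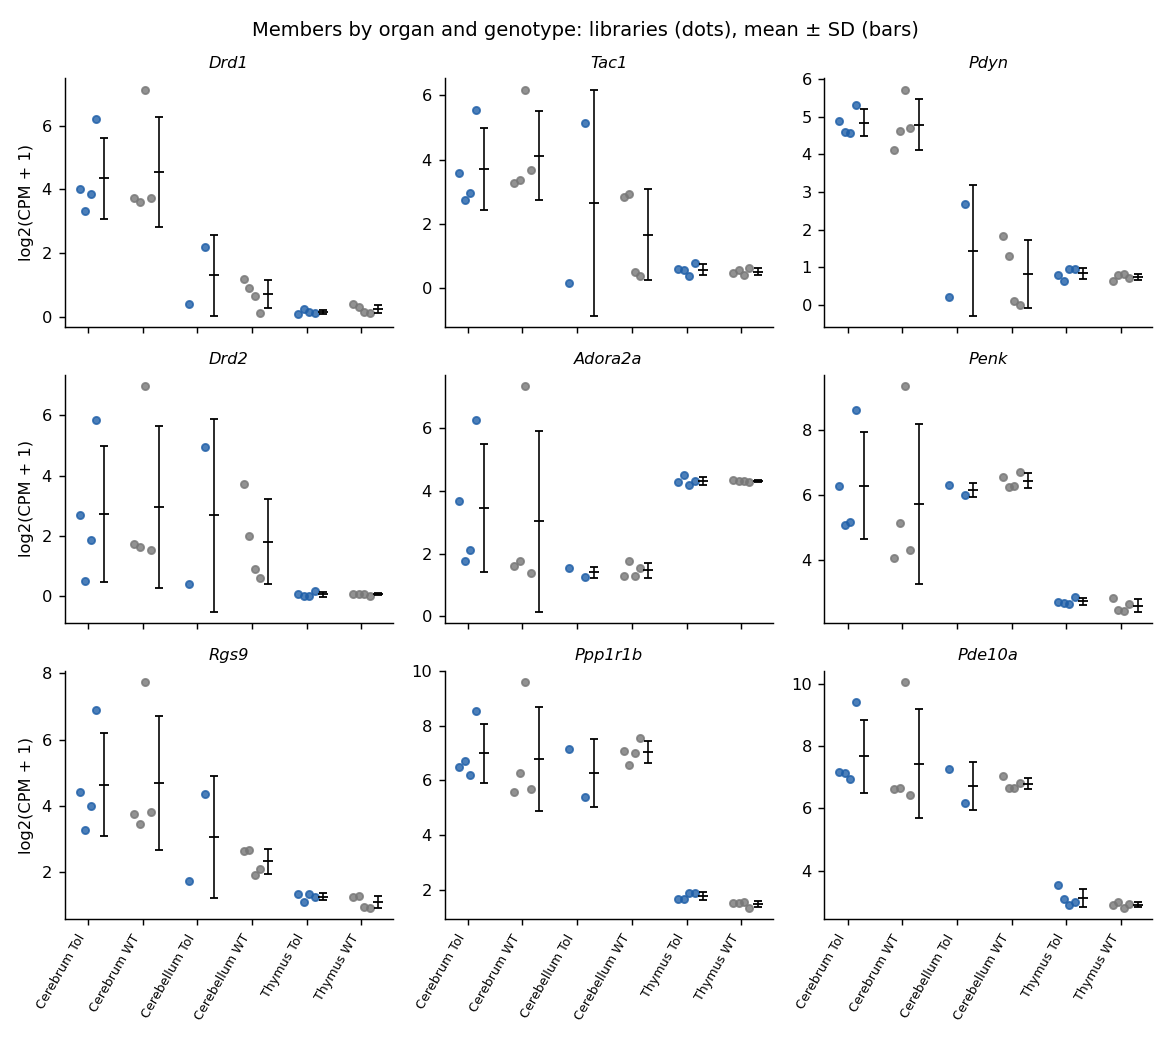
log2(CPM + 1) of each member in the 6 groups, with a dot for each library (Tol blue, WT grey) and bars for the mean ± SD. Adora2a sits above 4 in all 8 thymi, and Penk and Ppp1r1b sit higher in the 4 WT cerebella than in 3 of the 4 WT cerebra.

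In cerebellum, 0 of 9 members were called between Tol and WT by edgeR, and 0% of 16662 genes tested were called (527 at an unadjusted p under 0.05). The largest values were for Tac1, with a log2 fold change of 2.40 (SE 1.76, edgeR adjusted p = 0.957), and Drd2, with 1.90 (SE 1.64, adjusted p = 0.957). They came from 1 library: Tac1 was at 34.2 CPM in cerebellum Tol 2 and at 0.124 CPM (3 counts) in Tol 1, and Drd2 at 29.8 and 0.330 CPM. Drd1 (3.59 against 0.330 CPM), Rgs9 (19.4 against 2.35 CPM) and Pdyn (5.36 against 0.165 CPM) had the same order. Ppp1r1b (40.6 against 141.7 CPM) and Pde10a (70.5 against 152.0 CPM) had the opposite order, and Penk (63.1 and 78.9 CPM) and Adora2a (1.41 and 1.90 CPM) were closer. Without Tol 2, only 1 Tol library was left, with 3 counts of Tac1 and 8 of Drd2. The log2 fold changes of Tac1 and Drd2 were then -4.70 and -3.64. Markers of cerebellar neurons had a mean log2(CPM + 1) of 5.12 in Tol 2, against 7.80 to 9.03 in the other 5 cerebella, and markers of thalamic neurons were at 5.36 in Tol 2 and 5.33 in WT 1, against 4.48 to 4.80 in the other 4. Their part in these values was not tested.

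In thymus, Drd1 (2 to 7 counts) and Drd2 (0 to 3 counts) did not pass the filter on low counts, and 0 of the 7 members tested were called between Tol and WT, where edgeR called 0.0985% of 16248 genes. Adora2a had a log2 fold change of 0.01 (SE 0.08, edgeR adjusted p = 0.973), with 18.4, 21.6, 17.4 and 18.9 CPM in thymus Tol 1, 2, 3 and 4. Ppp1r1b was the member with groups that did not overlap, 1 of 7, where 11.6% of genes tested had such groups: it was at 2.11, 2.16, 2.70 and 2.70 CPM in the Tol and 1.88, 1.84, 1.91 and 1.49 CPM in the WT thymi. Its log2 fold change was 0.45 (SE 0.17, edgeR adjusted p = 0.148), from 37 to 85 counts a library. Penk stayed between 4.40 and 6.30 CPM and Pde10a between 5.95 and 10.5 CPM in the 8 thymi.

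Whether the genotype difference in cerebrum differed from that in cerebellum was tested as an interaction over 14 libraries. None of the 9 members passed (0 of 9, with 0% of 17130 genes tested and 1042 at an unadjusted p under 0.05). The interaction terms ran from -2.95 (Tac1, SE 1.91, edgeR adjusted p = 0.817) to -0.03 (Ppp1r1b, SE 1.39, adjusted p = 0.9996). Without cerebrum WT 3, cerebrum Tol 4 and cerebellum Tol 2, all 9 terms were above 0, up to 4.31 for Tac1. That fit held a single Tol cerebellum.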

How the data were processed

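Stranded, poly(A)-selected RNA libraries were quantified by the authors with Salmon 0.14.1 against GRCm38 transcripts plus the Tol sequence. The authors deposited these estimated counts, summed per gene, not normalized and already whole, in 1 table per organ. Their submitters' processing notes also name edgeR 3.9. How transcripts were summed to genes is not given in the sources used here. 0 columns were left unused.

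Libraries were grouped by the genotype and organ in the labels. The members and gene lists were chosen with earlier results of these data known. In R 4.3.3, the deposited counts were tested with edgeR 4.0.16 (TMM factors, filterByExpr, quasi-likelihood F test, Benjamini-Hochberg adjustment over all genes tested, threshold 0.05); the Tol transcript was not counted among the genes. Levels are CPM on TMM factors over 22 libraries, with a pseudocount of 1 on the log2 scale, which understates changes of low genes. Totals of 14543698 to 34776973 counts put the floor of 3 counts near the lowest levels given; intervals and floors cover counting error only. Member pairs were tested by exact permutation computed with numpy 2.4.6, with ranks for Spearman's rho from scipy 1.17.1. Symbols and coordinates are from GENCODE vM21, which held 34465 of the 34585 identifiers. The tests were tried on simulated counts with 200 genes changed.

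Named were all 9 members, the 2 genes of each list described with the lowest unadjusted p, and the 10 genes most like the members, of which 1 is not reported here; Six3 was singled out among these after its values were seen. No 2 replicates were identical or as close as counting error alone allows (chi-square divided by its degrees of freedom, 5.28 to 223.5). The samples are numbered separately, but p-values measure only the spread between them. Same-numbered libraries of the compared groups did not clearly deviate together in every pair, so the number was not used as a block in the main fits. Correlations between genotypes ran from -0.298 to 0.339 in cerebrum, -0.178 to 0.619 in cerebellum and -0.112 to 0.0513 in thymus. They ran from 0.00329 to 0.111 between WT cerebrum and WT cerebellum, and from -0.00774 to 0.0571 between WT cerebrum and WT thymus. Alternatives were DESeq2 1.42.0, its size factors in edgeR, no filter, all 22 libraries in one fit, the block, a pseudocount of 0.1, and each library left out. The Col1a1 insertion site was not analysed here.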

Additional observations from a re-analysis of the deposited data

Results flagged for a closer look

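Of 57 groups of 4 libraries examined, 14 held a library far from the other 3. For separate groups, chance gives about 1 in 20, or 2.85 groups. These groups share libraries and the members rise and fall together, so the 14 are not separate observations and cannot be set against that number. On log2(CPM + 1), cerebrum WT 3 lay far above the other WT cerebra for Drd1 (7.13, the nearest at 3.73), Drd2 (6.98, nearest 1.71), Adora2a (7.36, nearest 1.76), Rgs9 (7.73, nearest 3.81), Ppp1r1b (9.60, nearest 6.27), Pde10a (10.05, nearest 6.64) and Tac1 (6.17, nearest 3.67). The mean level over the members was 7.79 in WT 3, with the nearest WT cerebrum at 4.06. Pde10a was at 9.41 in cerebrum Tol 4, with the nearest Tol cerebrum at 7.18.

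Thymus WT 4 stood apart for Ppp1r1b at 1.32 (nearest 1.51) and for Drd2 at 0, where the other WT thymi held 1 count each, so that value is not distinguishable from theirs at this depth. Total counts stood apart in thymus Tol 1 (34776973), thymus WT 4 (29145285) and cerebrum Tol 4 (14543698).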

How the results depend on the processing

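Counts of members called in the 3 Tol against WT comparisons and in the interaction stayed at 0 under every alternative, DESeq2 included where it gave an adjusted p. DESeq2 gave none for 8 of 9 members in cerebrum, 7 between WT cerebrum and cerebellum, 8 between WT cerebrum and thymus, 7 in the interaction and 4 of 7 in thymus. Directions did not hold, and the cause was not tested. In cerebrum Pdyn, at 300 to 860 counts, moved less than Pde10a, at 1406 to 17607. Drd1 and Drd2 had 0 to 7 counts a library in thymus. In cerebellum Drd1, Drd2, Tac1 and Pdyn ran from 0 to 848 counts between libraries, with 2 Tol cerebella. The parts of depth and of the spread between libraries were not tested.

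With each library left out in turn, the log2 fold changes of Tol against WT in cerebrum ran as follows: Drd1 -1.80 to 1.20, Tac1 -1.70 to 0.78, Pdyn -0.23 to 0.39, Drd2 -3.51 to 2.95, Adora2a -2.84 to 3.50, Penk -1.91 to 2.54, Rgs9 -2.07 to 1.74, Ppp1r1b -1.43 to 1.48 and Pde10a -1.31 to 1.54. In cerebellum they were Drd1 -1.07 to 2.39, Tac1 -4.70 to 3.39, Pdyn -2.60 to 2.42, Drd2 -3.64 to 3.38, Adora2a -0.30 to 0.0813, Rgs9 -0.81 to 2.28, Ppp1r1b -1.69 to 0.0711 and Pde10a -0.61 to 0.46. Leaving out either Tol cerebellum left a single library in that group, in the interaction too. In thymus Adora2a ran from -0.0599 to 0.0480 and Tac1 from -0.0424 to 0.35. Between WT cerebrum and WT cerebellum the ranges were Drd2 -1.00007 to 4.52, Penk -1.91 to 1.45, Ppp1r1b -1.21 to 1.17 and Pde10a -0.23 to 1.93, and for Adora2a against WT thymus -3.27 to 1.52. In the interaction they were Drd1 -3.33 to 0.38, Tac1 -4.10 to 4.10, Pdyn -2.52 to 2.52, Drd2 -5.42 to 2.58, Adora2a -2.78 to 3.60, Penk -1.66 to 2.80, Rgs9 -3.53 to 0.31, Ppp1r1b -0.90 to 2.01 and Pde10a -1.36 to 1.50002.

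In the fits with a replicate block, signs turned for Adora2a (1.02), Rgs9 (0.0799), Penk (0.88), Ppp1r1b (0.41), Pde10a (0.36) and Pdyn (0.0652) in cerebrum, and for Drd2 (-0.57), Pde10a (-0.11), Tac1 (-0.82) and Pdyn (-0.61) in cerebellum. The block also turned Penk (-1.06) and Ppp1r1b (-0.40) between WT cerebrum and cerebellum, Adora2a (-1.53) against WT thymus, and Penk (0.051) and Ppp1r1b (0.0511) in the interaction. With the block, 2 rather than 5 members were called between WT cerebrum and cerebellum and 5 rather than 16 genes in thymus; it left the number of members called in each other comparison as it was. The labels do not say that a number marks a shared mouse or litter. The other striatal genes called between WT cerebrum and cerebellum were 11 higher and 1 lower of 25 with the block. In that fit, 23% of 15877 genes tested were called higher and 23.6% lower.

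Leaving out cerebrum WT 3 and Tol 4 together, chosen after seeing the data, gave Drd1 0.066, Drd2 0.46, Adora2a 1.54, Rgs9 0.30, Penk 1.07, Ppp1r1b 0.61, Pde10a 0.53 and Pdyn 0.20. With the members' own mean level as a covariate, also added later, the values were Adora2a 0.54, Penk 0.48, Ppp1r1b 0.18, Pde10a 0.20 and Pdyn 0.028, and Tac1 -0.47, Drd1 -0.25, Rgs9 -0.10 and Drd2 -0.097; since the covariate is the members' own mean, values on both sides of 0 follow from that choice. Leaving out these 2 cerebra and cerebellum Tol 2 gave interaction terms of Drd1 1.11, Drd2 4.08, Adora2a 1.42, Rgs9 1.08, Penk 1.18, Ppp1r1b 0.51, Pde10a 0.0391, Tac1 4.31 and Pdyn 2.76. A single Tol cerebellum was left in that fit.

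Over all genes, the number called in cerebrum was 0, but 187 with DESeq2, 25 with all 22 libraries in one fit, 2 without both high cerebra, 4 with the covariate and 0 to 7 with a library left out. In cerebellum it was 0, but 9 with DESeq2 and 0 to 2 with a library left out. In thymus it was 16, but 1296 with DESeq2, 130 without the filter, 29 in one fit and 0 to 2978 with a library left out, the highest without Tol 1. The interaction gave 0, but 7 with DESeq2 and 0 to 1499, the highest without cerebellum Tol 1. Members called between WT cerebrum and cerebellum numbered 3 to 5, and correlated pairs 20 to 36, with 20 both without WT 3 and without Tol 4. With a pseudocount of 0.1, the mean member level was 0.612 in Tol thymus, 0.496 in WT thymus and 2.61 in WT cerebellum, against 1.65, 1.55 and 3.23.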

Other observations

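The dopamine and cAMP signalling genes, among them G proteins, enzymes and the receptors Drd4 and Drd5, had a mean with a narrower range than that of the members. Their mean log2(CPM + 1) was 7.96 in cerebrum WT 3 and 7.71 in Tol 4, and 7.37 to 7.43 in the remaining cerebra. In pattern over the 8 cerebra, 4 of 19 had an r over 0.9 with the members' mean, where 1.14% of 15587 genes did. In both WT 3 and Tol 4, 9 of 19 were above the other 6 cerebra and 1 was below them. Of 15596 genes tested in cerebrum, 7.32% were above and 6.84% below in this way. Between WT cerebrum and WT cerebellum, 12 of 19 were called higher in cerebrum and 1 lower by edgeR, where 24.2% of all genes tested were called higher and 25.6% lower, with Cdk5r1, an activator of the kinase Cdk5 (log2 fold change 1.76, adjusted p = 2.15e-05), and Pde2a (4.43, adjusted p = 4.33e-05) at the lowest p. The counts were also 12 and 1 with the replicate block and without cerebrum WT 3.

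Genes of striatal interneurons had a mean log2(CPM + 1) of 5.07 in cerebrum WT 3 and 4.62 in Tol 4, and of 4.07 to 4.29 in the remaining cerebra. Of the 9 genes, 3 were above the remaining 6 cerebra in both libraries, and these are genes of cholinergic neurons: Slc5a7 was at 21.0 and 11.2 CPM in WT 3 and Tol 4 against 0.749 to 1.79 CPM, Chat, the enzyme that makes acetylcholine, at 10.02 and 3.89 CPM against 0.163 to 0.493 CPM, and Slc18a3, the vesicular acetylcholine transporter, at 4.62 and 1.71 CPM against 0.0986 to 0.485 CPM. The other 6, the GABAergic interneuron genes Pvalb, Sst, Npy, Nos1, Lhx6 and Kit, were not. Chat and Slc18a3 did not pass the filter on low counts in cerebrum. Of the 7 interneuron genes tested there, 1 (Slc5a7) was above the remaining 6 cerebra in both libraries, where 7.32% of 15596 genes tested were. Genes of midbrain dopamine neurons, whose axons reach the striatum, were at 2.70 in WT 3 and 2.41 in Tol 4, and at 2.21 to 2.42 in the remaining cerebra.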
